A study of Homo sapiens with 12 samples.

Results

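Metallothioneins are small cysteine-rich proteins that hold zinc, copper and cadmium in the cell, and MTF1 and SLC30A1 encode a regulator and an exporter of the same zinc response. The set described here was chosen by gene symbol and holds 8 of the 70116 genes in the deposited count table: the metallothionein genes MT1E, MT1F, MT1G, MT1M, MT1X and MT2A, the metal-responsive transcription factor gene MTF1, and SLC30A1, which encodes the zinc exporter ZnT1 of the plasma membrane. RNA with a poly(A) tail was sequenced from MiaPaCa-2, an established human pancreatic carcinoma line, with 3 libraries in each of 4 groups. The cells were transfected with a control siRNA (siControl) or with siRNA against SLC25A1, ACLY or ACO1 (siSLC25A1, siACLY and siACO1). SLC25A1 carries citrate out of mitochondria, ACLY splits cytosolic citrate, and ACO1 is the cytosolic aconitase, which can also act as an iron regulatory protein. All groups share the cell line and the transfection. The number of siRNAs per target, the culture medium and the time to harvest are not in the sources used here, so an effect of 1 siRNA sequence and an effect of losing the target cannot be told apart. The labels number the replicates but do not say that they were separate cultures, so p-values measure the spread between these libraries, which may be technical. In bulk RNA, fewer cells of a type and less RNA per cell cannot be told apart.

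MTF1 is held to sense free zinc through its zinc fingers, to move to the nucleus and to bind metal response elements in the promoters of metallothionein genes and of SLC30A1. The metallothioneins then bind the excess metal and ZnT1 exports it, so transcripts of both are commonly read together as a sign of zinc load. Metallothionein genes are also known to respond to cadmium, copper, glucocorticoids and oxidants. The human genes of the MT1 group and MT2A lie next to each other on chromosome 16.

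Library totals ran from 24159424 to 43792811 counts. Levels are CPM (counts relative to the library's size) scaled by trimmed mean of M values, given as mean ± SD over 3 libraries, and differences are log2 fold changes with their standard error (SE). All adjusted p-values are Benjamini-Hochberg values over 16197 tested genes from edgeR's two-sided quasi-likelihood F test of all 12 libraries, with a threshold of 0.05 for a call. Each siRNA lowered its own target, with log2 fold changes of -3.51 for SLC25A1, -3.79 for ACLY and -4.74 for ACO1. The line's KRT8, KRT18 and VIM transcripts were present in every library. Of the 5 duct markers, SOX9 (247.8 to 275.7 CPM) and MUC1 (9.45 to 21.4 CPM) were present, CDH1 and EPCAM reached at most 2 counts in a library and CFTR had none. The leukocyte transcripts PTPRC and CD3E, the endocrine transcripts INS, GCG and CHGA and the acinar transcripts PRSS1 and CPA1 were at 0, whereas acinar CEL had 2.41 to 4.99 CPM and leukocyte LYZ 0.642 to 2.24 CPM. Replicate 3 of siACO1 stood apart from replicates 1 and 2 of its group, with a chi-square per degree of freedom of 11.8 and 12.5 against 2.31 between the other two. Its genes also deviated from the group mean along transcript length (Spearman's rho -0.254 across 15376 genes, against 0.143 and 0.193 in replicates 1 and 2). The group mean includes all 3 libraries, so these values are not independent of each other. The negative value means that shorter genes tended to lie higher in replicate 3. For named genes of the set and of the gene lists, siACO1 log2 fold changes against siControl are therefore given with and without that library.

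The coding sequences show how alike these genes are, and therefore how far short reads can separate them. The sequences of the 4 metallothionein genes that were tested are printed from GENCODE release 29, with each base that differs from MT2A in capitals.
MT2A: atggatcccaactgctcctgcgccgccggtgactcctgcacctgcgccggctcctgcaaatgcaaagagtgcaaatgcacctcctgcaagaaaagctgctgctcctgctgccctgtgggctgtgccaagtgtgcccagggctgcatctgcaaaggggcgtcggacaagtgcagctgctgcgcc
MT1E: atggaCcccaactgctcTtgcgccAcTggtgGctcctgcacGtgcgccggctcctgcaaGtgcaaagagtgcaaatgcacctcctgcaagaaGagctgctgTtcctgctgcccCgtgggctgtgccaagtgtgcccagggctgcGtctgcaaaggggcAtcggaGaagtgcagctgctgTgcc
MT1X: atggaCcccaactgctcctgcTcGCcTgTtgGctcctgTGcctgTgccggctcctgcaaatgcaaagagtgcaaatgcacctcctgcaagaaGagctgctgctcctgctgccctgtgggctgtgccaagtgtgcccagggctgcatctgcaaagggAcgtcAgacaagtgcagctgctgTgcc
MT1M: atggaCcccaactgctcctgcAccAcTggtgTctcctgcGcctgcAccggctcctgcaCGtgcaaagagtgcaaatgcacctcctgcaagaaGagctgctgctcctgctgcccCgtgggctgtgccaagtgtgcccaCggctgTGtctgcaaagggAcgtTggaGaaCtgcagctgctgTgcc
Each is 183 bases long. MT1E and MT1X match MT2A at 92.3% of the bases and MT1M at 89.6%, and the longest run shared by MT2A and MT1X is 63 bases. Over whole transcripts, the share of 31-base stretches that also occur in another gene was 7.25% for MT2A, 15.6% for MT1E, 19.8% for MT1X and 23.8% for MT1M. It was 1.85% for MTF1 and 0 for SLC30A1. How reads that fit several genes were counted is not known, so values of genes at 20% or more are uncertain, which applies to MT1M and to MT1G (23.3%). MT1X is just under that limit, and 18.1% of its exon bases also overlap another annotated gene.

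Promoters bear on the set because MTF1 binds metal response elements. The RefSeq promoter table (GRCh38.p14) held 4 of the 8 genes. The core of the element was searched as TGCACNC and TGCGCNC on both strands, which cannot match the same place. The windows ran from 250 bases before to 50 after the RefSeq gene start. For MT2A, MT1X, SLC30A1 and MTF1 that start differs from the GENCODE start behind the places given below. The MT2A window thus lies inside its GENCODE gene. The 250 bases before the start are printed for MT2A and MT1X, which rose together after siACO1, and for SLC30A1, with cores on either strand in capitals.
MT2A, chr16:56608334-56608583, plus strand: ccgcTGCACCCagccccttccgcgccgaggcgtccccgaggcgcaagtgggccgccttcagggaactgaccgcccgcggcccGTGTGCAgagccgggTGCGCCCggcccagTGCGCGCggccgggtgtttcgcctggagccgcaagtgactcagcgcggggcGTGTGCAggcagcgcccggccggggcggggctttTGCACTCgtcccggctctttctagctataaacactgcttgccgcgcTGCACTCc
MT1X, chr16:56682220-56682469, plus strand: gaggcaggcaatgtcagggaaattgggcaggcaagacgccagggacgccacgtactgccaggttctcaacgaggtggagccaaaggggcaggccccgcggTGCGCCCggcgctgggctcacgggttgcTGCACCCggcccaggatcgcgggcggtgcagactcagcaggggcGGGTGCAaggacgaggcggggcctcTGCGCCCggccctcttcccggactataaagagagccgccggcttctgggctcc
SLC30A1, chr1:211579162-211579411, minus strand: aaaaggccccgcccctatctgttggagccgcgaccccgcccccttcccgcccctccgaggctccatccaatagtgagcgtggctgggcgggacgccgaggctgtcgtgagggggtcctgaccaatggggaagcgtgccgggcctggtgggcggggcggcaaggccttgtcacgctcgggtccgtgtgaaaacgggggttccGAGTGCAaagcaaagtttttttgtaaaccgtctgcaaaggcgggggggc
Of 35116 promoters of this length, 29.6% held at least 1 core. MT2A held 8, 7 of them before the start, and 0.0199% of promoters had at least as many. MT1X held 4, all before the start (0.601% of promoters had at least as many), and SLC30A1 held 2, 1 on each side of the start (8.6%). The MTF1 window held none of these letters. Outside the set, the promoters of MT1H and MT1B held 8 and 3 cores, all before the start (0.0199% and 2.3% of promoters had at least as many). Both of these genes were at 0 counts in all 12 libraries. Such matches describe the sequence and do not show binding.

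The metallothionein genes were expressed from 2 stretches of the cluster with silent genes between them. In GENCODE 29 on GRCh38, the protein-coding genes run along chromosome 16 from MT2A (56608199 to 56609497) through MT1E (56625475 to 56627112), MT1M (56632233 to 56633986), MT1A (56638666 to 56640087), MT1F (56657694 to 56660698) and MT1G (56666731 to 56668065, minus strand) to MT1X (56682424 to 56684196). MTF1 (37809567 to 37859620) and SLC30A1 (211571568 to 211578742) lie on the minus strand of chromosome 1. MT1F had no count in any of the 12 libraries, among 360745727 counts in all, which allows up to 0.00832 CPM for counting error only. MT1G had 12 counts in all and at most 4 in a library. The other 6 genes of the set passed the filter on low counts and are the ones tested. MT1B, which lies before MT1F, and MT1H, which lies after MT1G, were also at 0. The zinc importer gene SLC39A7 reached no more than 0.105 CPM in any library, and whether the counting lost reads of such genes was not tested.

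**Figure D1:**
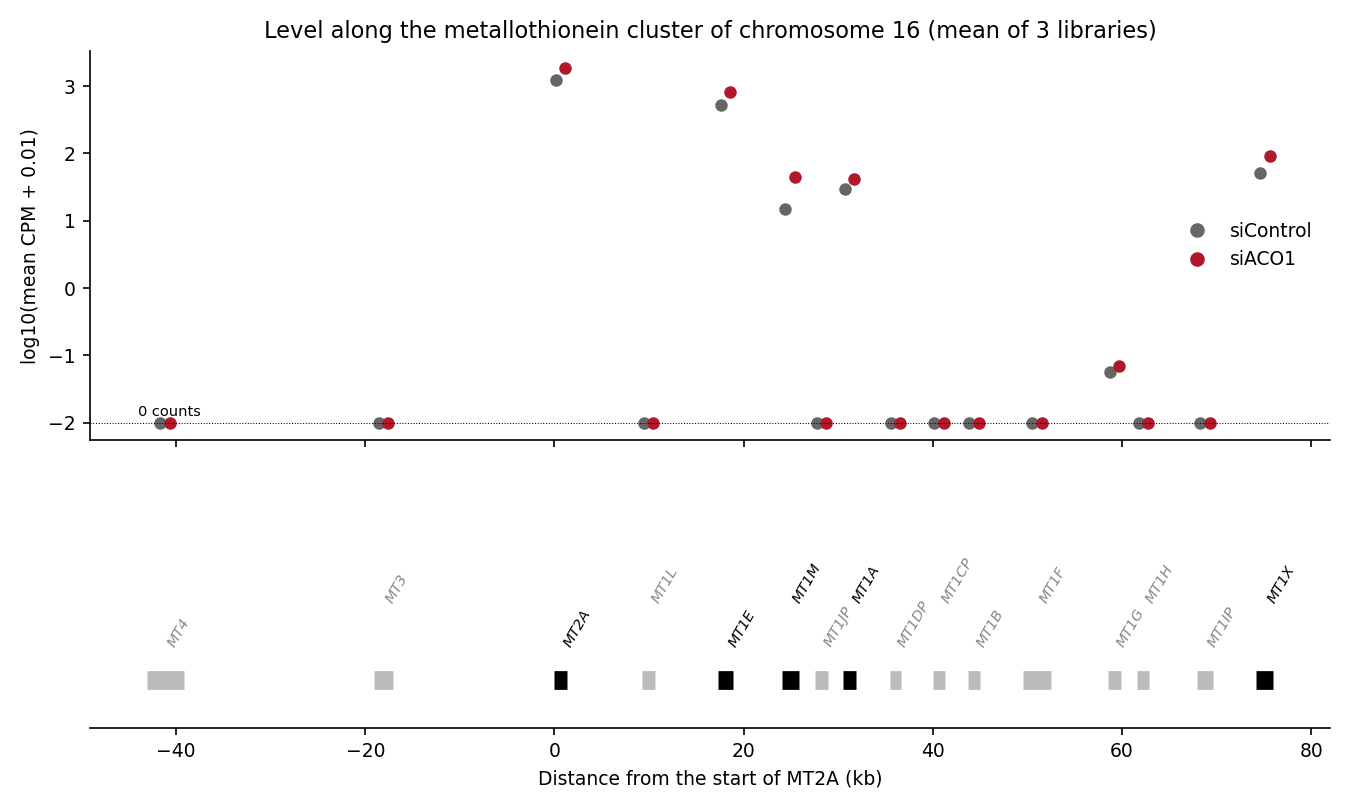
The horizontal axis gives the distance from the MT2A start along chromosome 16 in kilobases, the upper vertical axis log10 of the mean CPM of 3 libraries plus 0.01 (siControl grey, siACO1 red), and the lower strip the genes, black where tested and grey where not. MT2A, MT1E, MT1M and MT1A to the left and MT1X to the right were expressed, MT1F was at 0 and MT1G had 12 counts in all 12 libraries.

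Levels of different genes are compared per kilobase of exon. In siControl MT2A had 1257.6 ± 47.1 CPM per kilobase (SD, n = 3) and MT1E 497.2 ± 15.2. The next levels were 63.1 ± 1.48 for MT1X, 22.7 ± 0.453 for SLC30A1, 18.3 ± 0.924 for MT1M and 5.46 ± 0.29 for MTF1, so that neighbours in this order differed by more than their spread. The exon union is that of the basic GENCODE transcripts, whereas the longest transcript was taken from the full annotation. The longest transcript can therefore exceed the union, as for MT1X (1727 and 823 bases). The longest transcript in place of the exon union gave MT1X 30.1 and MT1E 717.5 and left the order as it was. After siACO1, MT1M reached 54 ± 8.02 CPM per kilobase and passed SLC30A1 at 23.3 ± 0.595.

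After siACO1 every tested metallothionein gene of the set rose, while MTF1 and SLC30A1 did not pass the test. MT2A, the most abundant of them, had 1299.8, 1224.1 and 1214.8 CPM in the siControl libraries and 1676.1, 1687.6 and 2126.6 in the siACO1 libraries. Its level was 1246.3 ± 46.6 CPM in siControl and 1830.1 ± 256.9 in siACO1 (SD, n = 3), and replicate 3 was the highest library. The log2 fold change was 0.55 (SE 0.11, adjusted p = 0.00367 by edgeR), and 0.43 (adjusted p = 0.00924) without siACO1 replicate 3.

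MT1E had 538.9, 523.2 and 507.0 CPM in siControl and 757.0, 752.8 and 972.0 in siACO1. The groups did not overlap, and again replicate 3 was the highest. The log2 fold change was 0.66 (SE 0.09, adjusted p = 0.000223 by edgeR), and 0.53 without replicate 3. MT1X, from the far end of the cluster, had 52.5, 52.8 and 50.5 CPM in siControl and 88.5, 93 and 91.5 in siACO1. Here replicate 3 lay between the other two libraries. MT1X rose by 0.81 on the log2 scale (SE 0.06, adjusted p = 3.58e-12 by edgeR), and by 0.80 without replicate 3.

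MT1M, whose counts are uncertain for the reason given above, had the largest log2 fold change of the 6 tested genes. It had 16, 14.6 and 14.9 CPM in siControl and 39.9, 42 and 52.3 in siACO1, which is 294.7% of the control mean. The log2 fold change was 1.56 (SE 0.09, 95% confidence interval 1.39 to 1.74, adjusted p = 8.83e-14 by edgeR), and 1.43 without replicate 3. Its interval lay above those of MT2A (0.30 to 0.81), MT1E (0.45 to 0.87) and MT1X (0.69 to 0.93), although the difference between genes was not tested.

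**Figure D2:**
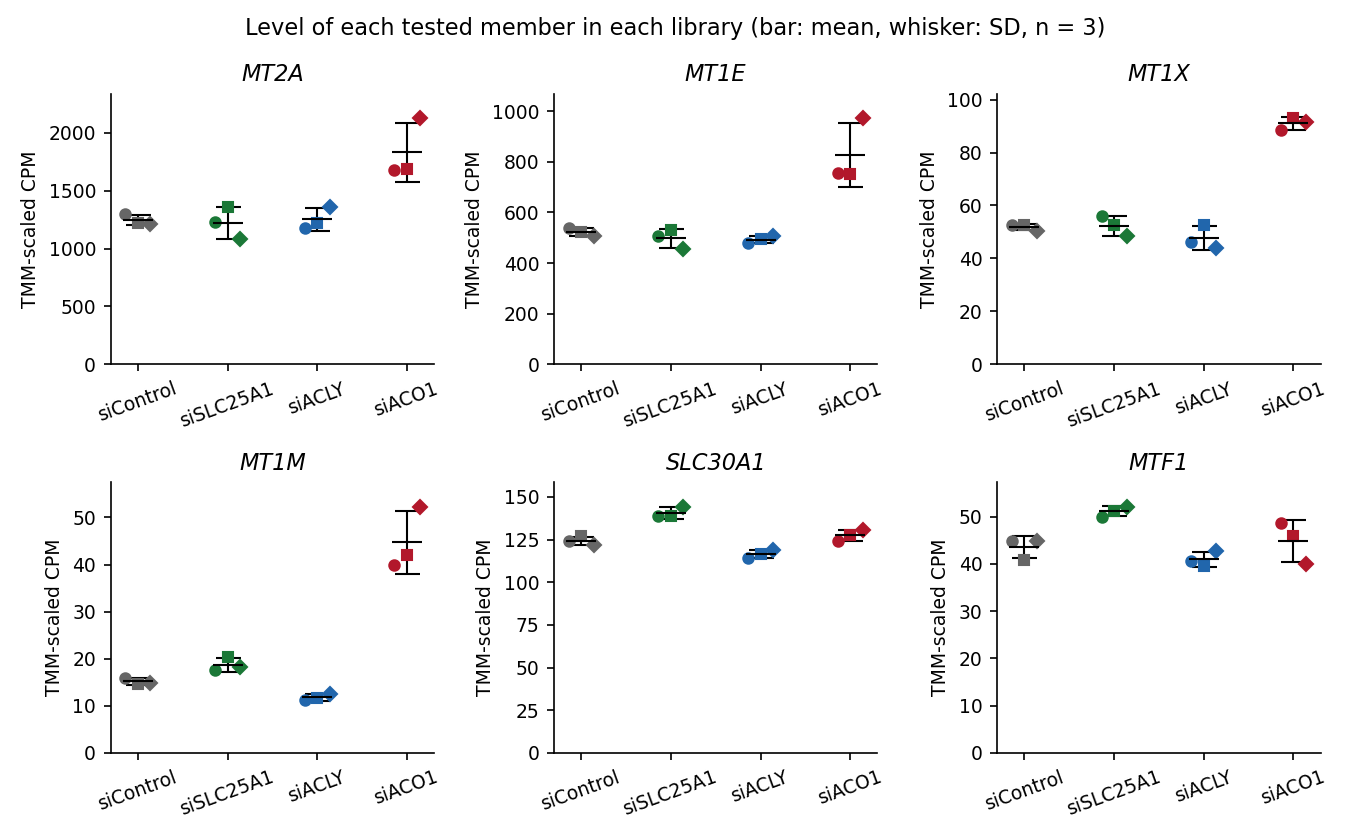
Each panel gives 1 gene, with the 4 groups on the horizontal axis and its level in CPM on the vertical axis, where points are libraries, bars are means and whiskers are SDs over 3 libraries. The 4 metallothionein genes lay higher in siACO1 than in siControl without overlap, and SLC30A1 was highest in siSLC25A1, at 138.6 to 144.3 CPM.

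The regulator and the exporter behaved differently from the metallothioneins. MTF1 had 44.8, 40.9 and 44.9 CPM in siControl and 48.6, 45.8 and 39.9 in siACO1, and the groups overlapped (log2 fold change 0.04, SE 0.06, 95% confidence interval -0.09 to 0.16, adjusted p = 0.672 by edgeR). SLC30A1 had 124.0, 126.8 and 121.9 CPM in siControl and 124.2, 127.8 and 130.7 in siACO1. Its log2 fold change was 0.04 (SE 0.04, 95% confidence interval -0.05 to 0.12, adjusted p = 0.5 by edgeR), an interval that lay below that of MT2A. Without siACO1 replicate 3 the differences were 0.11 for MTF1 and 0.02 for SLC30A1. In all, 4 of the 6 tested genes of the set were called after siACO1, all of them higher, against 37.1% of all genes called and 17.8% called higher. The groups did not overlap for 4 of the 6, against 46.3% of all genes. Library totals in place of scaling factors moved the share of higher genes among all those called from 47.9% to 59.5% after siACO1 and from 50.1% to 61% after siACLY, and from 51.8% to 41% in siSLC25A1 against siACLY and from 51.8% to 42.2% in siSLC25A1 against siACO1. The median log2 fold change was 0.61 over the 6 genes and 0.01 over all genes tested.

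Transcript length moved with the siACO1 comparison, and the metallothionein transcripts are short. Genes of up to 1100 exon bases had a median log2 fold change of 0.08 (2084 genes), against -0.03 for genes of over 4400 bases (4979 genes). With a length trend removed from each library the log2 fold changes were 0.49 for MT2A, 0.60 for MT1E, 0.73 for MT1X and 1.48 for MT1M, and all 4 stayed called.

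**Figure D3:**
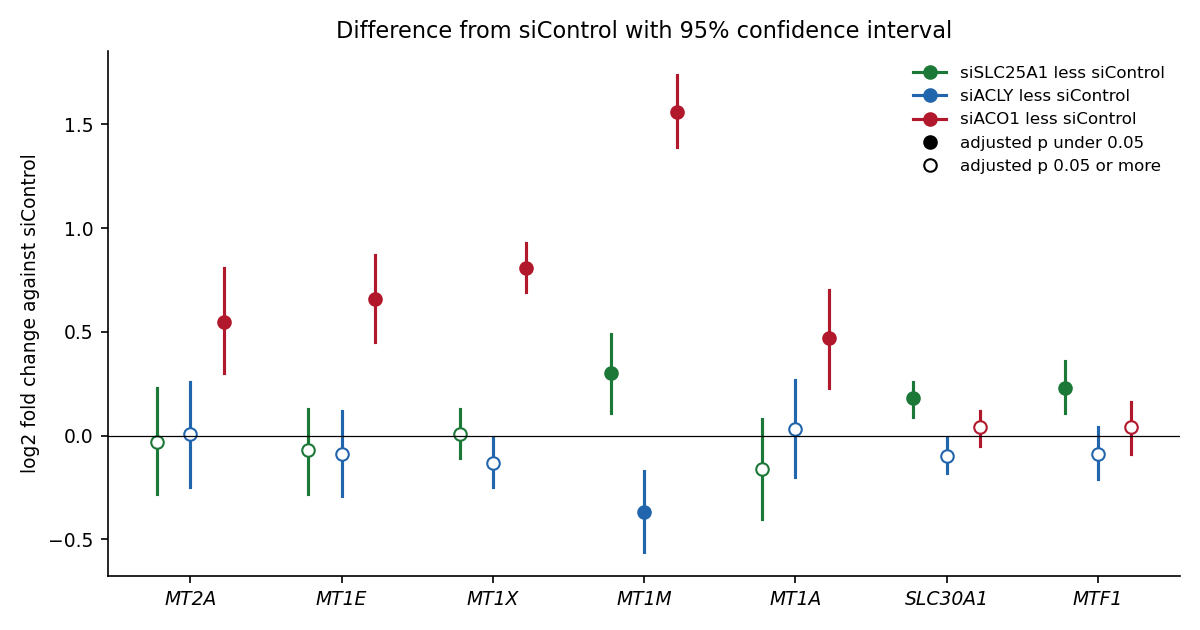
The vertical axis gives the log2 fold change of each knockdown less siControl for the 6 tested genes of the set and MT1A on the horizontal axis, where points are estimates, filled at an adjusted p under 0.05, and bars are 95% confidence intervals from the edgeR fit of 12 libraries. After siACO1 the intervals of the metallothionein genes lay above 0, whereas those of MTF1 (-0.09 to 0.16) and SLC30A1 (-0.05 to 0.12) included 0.

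The total metallothionein message was summed over 13 metallothionein genes of the table, leaving out pseudogenes with a P in their symbol, of which 7 were at 0. The sum was 1866.3 ± 64.1 CPM in siControl, 1818.7 ± 182.9 in siSLC25A1, 1834.5 ± 110.0 in siACLY and 2834.4 ± 395.7 in siACO1 (SD, n = 3). The siACO1 libraries ran from 2598.7 to 3291.2 CPM, above all libraries of the other groups, which ran from 1624.8 to 1988.0. The highest of them was replicate 3, and replicates 1 and 2 had 2598.7 and 2613.2 CPM. MT2A made up 66.8% ± 0.38 of the sum in siControl and 64.6% ± 0.06 in siACO1, and MT1E 28% ± 0.29 and 29.2% ± 0.36. MT1M was a small part of it, and its share was 0.828%, 0.791% and 0.821% in siControl and 1.54%, 1.61% and 1.59% in siACO1. It was 0.952%, 1.02% and 1.13% in siSLC25A1 and 0.646%, 0.646% and 0.645% in siACLY. The MT1M shares of each knockdown did not overlap those of siControl, with p = 0.1 in an exact two-sided permutation test, the smallest value that 3 against 3 libraries can give. The MT1M share of siACO1 replicate 3 (1.59%) lay between those of the other libraries of its group, whereas its MT1X share (2.78%) lay below theirs (3.4% and 3.56%) and within the range of siControl (2.71% to 2.86%).

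**Figure D4:**
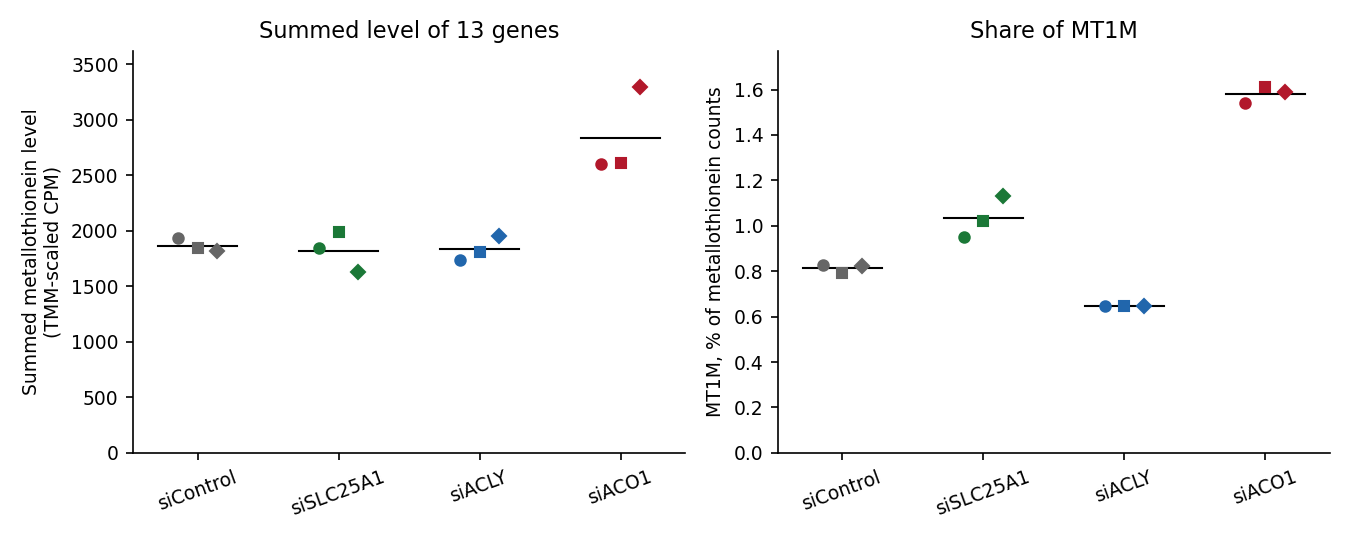
The left panel gives the summed CPM of 13 metallothionein genes and the right panel the percentage of that sum from MT1M, with the 4 groups on the horizontal axis, 1 point for each library and a line at the mean. The sum was 2598.7 CPM or more in the siACO1 libraries and 1988.0 or less in all others, whereas the MT1M share of every knockdown lay outside the range of siControl.

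After siSLC25A1 the exporter, the regulator and MT1M rose, and the abundant metallothioneins did not pass the test. SLC30A1 had 138.6, 138.6 and 144.3 CPM, all above the 3 siControl libraries, a log2 fold change of 0.18 (SE 0.04, adjusted p = 0.00198 by edgeR). MTF1 had 50, 51.2 and 52.1 CPM, also above all siControl libraries, and rose by 0.23 (SE 0.06, adjusted p = 0.007 by edgeR). MT1M had 17.5, 20.3 and 18.3 CPM and rose by 0.30 (SE 0.09, adjusted p = 0.0213 by edgeR).

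These rises were small, and 2 of the 3 depended on single libraries. The call of MTF1 was lost without siControl replicate 2 (0.19, adjusted p = 0.0654 by edgeR). That of MT1M was lost without siControl replicate 2 (0.27, adjusted p = 0.0912), siControl replicate 3 (0.29, adjusted p = 0.0678) or siSLC25A1 replicate 2 (0.24, adjusted p = 0.125). The call of SLC30A1 held without any single library. MT2A (1233.1, 1356.8 and 1081.8 CPM), MT1E (508.2, 528.5 and 454.1 CPM) and MT1X (55.9, 52.8 and 48.5 CPM) overlapped siControl, and replicate 3 was the lowest library for each of these genes. Their log2 fold changes were -0.03 (95% confidence interval -0.28 to 0.23), -0.07 (-0.28 to 0.13) and 0.01 (-0.11 to 0.13). In all, 3 of the 6 tested genes of the set were called, all higher, against 19.6% of all genes called and 10.3% called higher. The groups did not overlap for 3 of the 6, against 37.1% of all genes. Transcript length also moved with this comparison, in the other direction than after siACO1. Genes of up to 1100 exon bases had a median log2 fold change of -0.08, against 0.03 for genes of over 4400 bases. With the length trend removed, SLC30A1 was at 0.16, MTF1 at 0.19 and MT1M at 0.37, and all 3 stayed called. MT2A (0.04), MT1E (-0.02) and MT1X (0.08) stayed without a call.

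After siACLY only MT1M passed the test among the 6 genes, and it fell. It had 11.2, 11.7 and 12.6 CPM, below all siControl libraries, and a log2 fold change of -0.37 (SE 0.09, adjusted p = 0.00334 by edgeR), a call that held without any single library. MT2A had 1174.0, 1219.9 and 1361.5 CPM, within and around the siControl range (0.01, 95% confidence interval -0.25 to 0.26). MT1E had 478.0, 494.5 and 504.9 CPM, just below the lowest siControl library at 507.0, without a call (-0.09, adjusted p = 0.514 by edgeR). Without siACO1 replicate 3 its adjusted p was 0.0584 by edgeR at the same difference, still without a call. MT1X had 46.1, 52.8 and 44.1 CPM (-0.13, adjusted p = 0.0942 by edgeR) and was called without siACLY replicate 2 (-0.21, adjusted p = 0.00958).

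SLC30A1 had 114.1, 116.3 and 118.7 CPM after siACLY, below all siControl libraries, at -0.10 (SE 0.04, adjusted p = 0.0665 by edgeR). It was on the other side of the threshold without siACO1 replicate 3 (-0.10, adjusted p = 0.019), a library that enters this comparison through the shared estimate of the spread. MTF1 had 40.7, 39.6 and 42.8 CPM (-0.09, adjusted p = 0.299 by edgeR). In all, 1 of the 6 genes was called, lower, against 36.7% of all genes called and 18.3% called lower, and the groups did not overlap for 3 of the 6, against 50.5% of all genes. The 3 comparisons with siControl share the same control libraries.

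In comparisons between knockdowns, the control libraries enter only through the shared estimate of the spread. Each of the 4 metallothionein genes was lower in siSLC25A1 than in siACO1, with log2 fold changes of -0.58 (MT2A), -0.74 (MT1E), -0.80 (MT1X) and -1.26 (MT1M) and adjusted p-values of 0.00244 or less by edgeR. SLC30A1 and MTF1 pointed the other way and were higher in siSLC25A1 than in siACO1, SLC30A1 by 0.14 (SE 0.04, adjusted p = 0.00673 by edgeR) and MTF1 by 0.19 (SE 0.06, adjusted p = 0.0124 by edgeR). The MTF1 difference was 0.12 without siACO1 replicate 3 (adjusted p = 0.0924), and both calls were lost with the length correction (SLC30A1 at 0.09 and MTF1 at 0.12) and with library totals in place of scaling factors (0.10 and 0.15). Here 6 of 6 were called, 2 higher and 4 lower, against 42.1% of all genes called, 21.8% higher and 20.3% lower. The groups did not overlap for 6 of 6, against 48.0% of all genes. Without siACO1 replicate 3 the metallothionein differences were -0.46, -0.60, -0.79 and -1.13 in the same order.

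In siACLY against siACO1, 5 of the 6 genes were called, all lower, against 42.1% of all genes called and 20.7% called lower, and the groups did not overlap for 5 of 6, against 49.0% of all genes. The log2 fold changes were -0.55 for MT2A, -0.75 for MT1E, -0.93 for MT1X, -1.93 for MT1M and -0.13 for SLC30A1 (adjusted p = 0.00895 by edgeR). Without siACO1 replicate 3 they were -0.43, -0.62, -0.94, -1.80 and -0.12. MTF1 was at -0.12 (adjusted p = 0.114 by edgeR) and was called without that library (-0.20, adjusted p = 0.00334). In siSLC25A1 against siACLY, 3 of the 6 were called, all higher, against 33.8% of all genes called and 17.5% called higher, and the groups did not overlap for 3 of 6, against 46.5% of all genes. They were MT1M (0.67, adjusted p = 4.16e-06), MTF1 (0.32, adjusted p = 0.000178) and SLC30A1 (0.27, adjusted p = 5.12e-06, by edgeR). These 3 calls held without any single library.

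In order of level, SLC30A1 was therefore highest in siSLC25A1 (140.5 ± 3.29 CPM), then siACO1 (127.6 ± 3.25) and siControl (124.2 ± 2.48), which did not differ beyond their spread, and lowest in siACLY (116.3 ± 2.32), which was called against siSLC25A1 and siACO1 but not against siControl. MTF1 followed the order of siSLC25A1 (51.1 ± 1.05 CPM), siACO1 (44.8 ± 4.46), siControl (43.5 ± 2.31) and siACLY (41 ± 1.58), of which only siSLC25A1 passed the test against the others. MT1M stood in the order of siACO1 (44.7 ± 6.65 CPM), siSLC25A1 (18.7 ± 1.44), siControl (15.2 ± 0.766) and siACLY (11.8 ± 0.699), with every pair called.

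Among other metallothionein genes, 1 of 13 listed genes was tested. This was MT1A, which lies between MT1M and the silent genes and had 31.1, 30.3 and 28.2 CPM in siControl and 37.1, 37.8 and 48.7 in siACO1. It rose by 0.47 (SE 0.11, adjusted p = 0.00337 by edgeR), and by 0.32 without siACO1 replicate 3, and it was not called after siSLC25A1 (-0.16) or siACLY (0.03).

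The counts for the gene lists below are set beside the share of all genes called after siSLC25A1 (19.6%), siACLY (36.7%) and siACO1 (37.1%), and beside median log2 fold changes over all genes of -0.00, 0.01 and 0.01. Of 6 tested genes among 9 other members of the SLC30 exporter family, which load zinc into the Golgi and vesicles or out of the cell, none was called after siSLC25A1 or siACLY in the edgeR fit, and 1 was higher and 1 lower after siACO1. At an unadjusted p under 0.05 edgeR gave 0 genes after siSLC25A1 and 3 lower after siACLY, and DESeq2 called 0 in both. Without siACO1 replicate 3, edgeR called 3 lower after siACLY. SLC30A3 fell after siACO1 from 2.06 ± 0.233 to 0.681 ± 0.101 CPM (-1.60, SE 0.24, adjusted p = 4.37e-06 by edgeR), and by 1.49 on the log2 scale without siACO1 replicate 3. The SLC39 importers, which bring zinc into the cytosol, had 10 of 14 tested, with 3 higher and none lower after siSLC25A1, 2 higher and 2 lower after siACLY, and 3 higher and 1 lower after siACO1. These are 3, 4 and 4 of 10, against 19.6%, 36.7% and 37.1% of all genes called in these comparisons. SLC39A10, a plasma membrane importer, rose after siACLY (0.34, SE 0.04, adjusted p = 1.56e-07 by edgeR) and after siACO1 (0.22, adjusted p = 0.000121, and 0.24 without replicate 3). SLC39A14, which also carries iron, fell after siACO1 by 0.33 (SE 0.04, adjusted p = 9.7e-08 by edgeR), the same as without replicate 3. The 3 calls after siSLC25A1 were each lost without at least 1 library. No SLC39 gene was lower after siSLC25A1 at an unadjusted p under 0.05 or by DESeq2 either (0 of each). The medians of the SLC39 list were 0.01, -0.02 and -0.08 in siSLC25A1, siACLY and siACO1.

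Copper handling genes had 13 of 16 tested, with 1 higher and 2 lower after siSLC25A1, 3 higher and 1 lower after siACLY, and 1 higher and 1 lower after siACO1. These are 3, 4 and 2 of 13, against 19.6%, 36.7% and 37.1% of all genes called in these comparisons. SLC31A1, the main copper importer, rose after siSLC25A1 (0.25, SE 0.05, adjusted p = 0.000304 by edgeR), and COMMD1, a copper homeostasis protein, rose after siACO1 (0.32, SE 0.06, adjusted p = 0.000179 by edgeR, and 0.27 without replicate 3). With library totals in place of scaling factors, 3 copper genes were higher and 1 lower after siACO1. In that setting 5 were higher and 1 lower after siACLY, and 1 was higher and 1 lower after siSLC25A1.

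Of 7 tested among 8 other genes linked to MTF1 in earlier work, 1 was higher and 4 were lower after siACO1, with a median log2 fold change of -0.26. The 1 higher gene was SLC39A10 (0.22), which is also counted in the SLC39 list above. The list was not split by the direction of the link to MTF1, so these counts do not measure MTF1 activity. SELENOW, a small selenoprotein, fell by 0.57 (SE 0.05, adjusted p = 1.43e-10 by edgeR), and by 0.64 without replicate 3. SLC7A11, the cystine importer, fell by 0.44 (SE 0.06, adjusted p = 1.33e-06 by edgeR), and by 0.40 without replicate 3. After siSLC25A1 the list had 2 higher and 1 lower, and after siACLY 4 higher and 1 lower. These are 3, 5 and 5 of 7 after siSLC25A1, siACLY and siACO1, against 19.6%, 36.7% and 37.1% of all genes called in these comparisons.

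Of 8 tested among 12 heavy-metal and heat stress genes, none was higher and 5 were lower after siACO1, 3 were higher and 1 lower after siSLC25A1, and 2 were higher and 2 lower after siACLY. In siSLC25A1, siACLY and siACO1 these are 4, 4 and 5 of 8, against 19.6%, 36.7% and 37.1% of all genes called in these comparisons. No gene of the list was higher after siACO1 at an unadjusted p under 0.05 or by DESeq2 (0 of each). HMOX1, heme oxygenase, fell by 0.37 after siACO1 (SE 0.08, adjusted p = 0.000624 by edgeR) and by 0.47 without replicate 3, and it rose by 0.62 after siSLC25A1 and by 1.49 after siACLY. TXNRD1, thioredoxin reductase, fell by 0.55 after siACO1 (adjusted p = 2.19e-12 by edgeR), by 0.56 without replicate 3, and rose by 0.46 after siSLC25A1 (adjusted p = 2.68e-10).

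Glucocorticoid-responsive genes had 10 of 12 tested, with 3 higher and none lower after siSLC25A1, 7 higher and 1 lower after siACLY, and 5 higher and 3 lower after siACO1. These are 3, 8 and 8 of 10, against 19.6%, 36.7% and 37.1% of all genes called in these comparisons. None was lower after siSLC25A1 at an unadjusted p under 0.05 or by DESeq2 (0 of each), and the call of CRISPLD2 there was lost without at least 1 library. TSC22D3, a glucocorticoid-induced leucine zipper protein, rose after siACLY (2.57, SE 0.17, adjusted p = 6.52e-13 by edgeR). It rose by 0.76 after siSLC25A1 (adjusted p = 0.00546) and by 0.79 after siACO1 (adjusted p = 0.00143, and 0.62 without replicate 3). DUSP1, a phosphatase of MAP kinases, rose by 1.11 after siACLY and by 1.37 after siACO1 (1.38 without replicate 3), with adjusted p-values of 6.49e-13 and 6.08e-15 by edgeR. Without siACO1 replicate 3 the counts after siACO1 were 3 higher and 2 lower for the SLC39 list, 1 and 2 for copper and 0 and 6 for stress genes, and the other lists kept their counts.

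**Figure D5:**
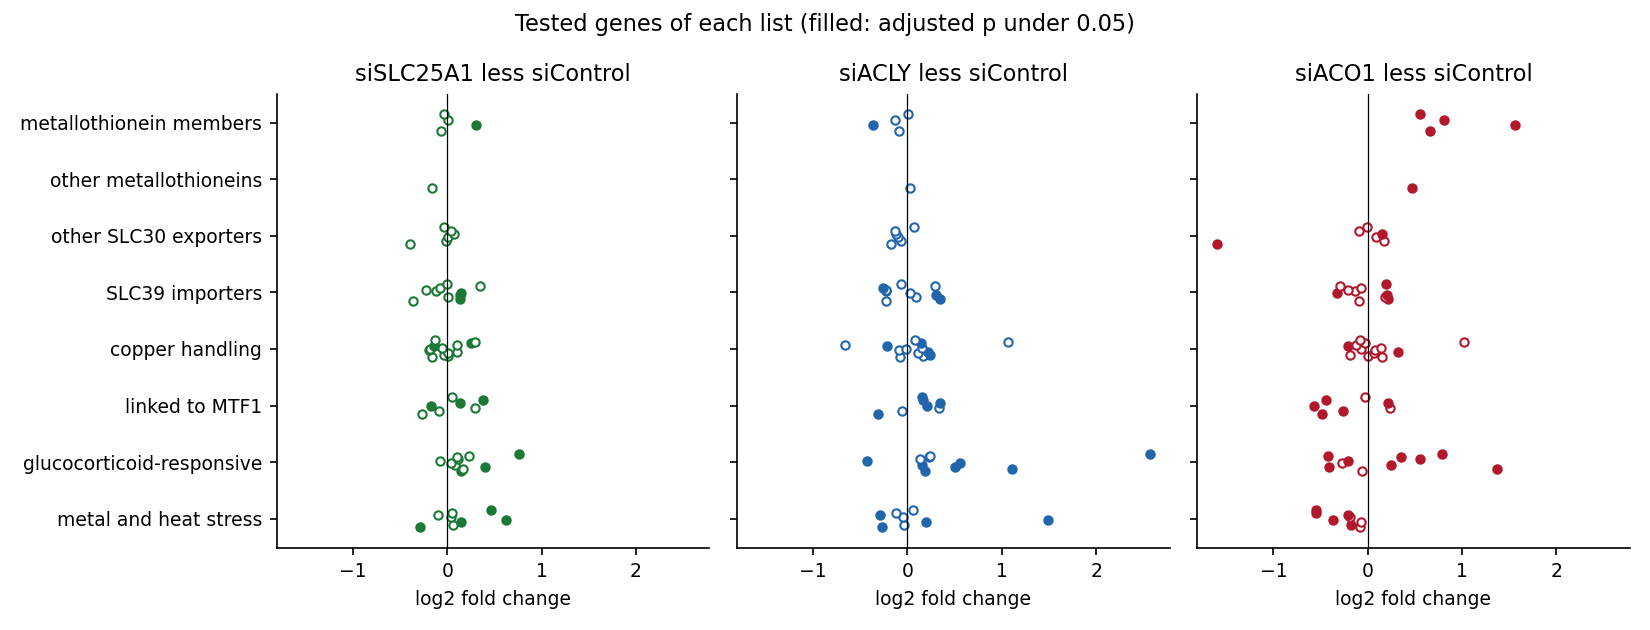
Each panel gives 1 knockdown less siControl, with the log2 fold change on the horizontal axis, the 4 tested metallothionein genes of the set and the 7 gene lists on the vertical axis and 1 point for each tested gene, filled where the adjusted p was under 0.05. After siACO1 the heavy-metal and heat stress list had 5 filled points below 0 and none above.

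The genes whose pattern was most like that of MT2A were sought by the root mean square difference of log2 CPM less the siControl mean, over 12 libraries and 9962 genes. The genes of the set were left out of this search, so MT1A was the only metallothionein gene that could appear. The nearest were C12orf57 (0.0939), CTF1 (0.095), MT1A (0.0992), NDUFAF3 (0.108) and DCTN3 (0.11). For SLC30A1 the nearest were RAB5A (0.0361), DYNLL2 (0.0415), BCL2L2 (0.0431), YES1 and MAK16 (both 0.0446). These are descriptions over libraries that share their groups, and siACO1 replicate 3 is among them.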

How the data were processed

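RNA with a poly(A) tail was sequenced from MiaPaCa-2 cells in 12 libraries. The authors deposited raw counts per gene, whole numbers with 1 column per library, per the file headers. Per the submitters' processing notes, STAR 2.7.0e, Trim Galore, CASAVA, FastQC and DESeq2 were used and the builds GRCm39 and GRCh38 are named, with no role given. The counter, annotation release and strand setting are not given in the sources used here.

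Symbols from a separate table matched 62700 of 70116 gene identifiers (89.4%). Exon lengths, places and coding sequences are those of GENCODE 29 on GRCh38, and promoters those of RefSeq on GRCh38.p14, either of which may differ from the annotation behind the counts. Genes passing edgeR's filterByExpr (16197) were fitted with edgeR 4.0.16 (R 4.3.3) by a robust quasi-likelihood model of 4 groups without a block. The common biological coefficient of variation was 4.89%, with 8 residual degrees of freedom. Scaling makes levels relative to a library's total, so a change in total RNA would not be seen.

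Named genes are the 8 members, the 3 targets, for each of 7 gene lists and each knockdown up to 3 called genes with the largest change and at least 1 CPM, and the 5 genes of at least 5 CPM nearest to MT2A and to SLC30A1. Most calls of other genes that 1 library or setting ended are left to the closing section. The markers, MT1B, MT1H, SLC39A7 and the genes flanking the cluster were named outside this rule, all but the markers after their values were seen. The members and lists were chosen with earlier results of these data known. The alternatives were other scalings, filters and tests, a replicate block, a length correction and leaving out each library.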

Additional observations from a re-analysis of the deposited data

Results flagged for a closer look

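MT1M moved in opposite directions in different knockdowns, since it was called higher than siControl after siSLC25A1 and siACO1 and lower after siACLY. The difference itself was tested in the edgeR fit. MT1M was higher in siSLC25A1 than in siACLY by 0.67 on the log2 scale (adjusted p = 4.16e-06), and the 3 libraries of siSLC25A1 (17.5 to 20.3 CPM) lay above all 3 of siACLY (11.2 to 12.6 CPM). In siACLY against siACO1 the log2 fold change was -1.93 (adjusted p = 1.78e-15), again without overlap. The share of 31-base stretches that MT1M has in common with other genes was 23.8%, and its part in these differences was not tested.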

How the results depend on the processing

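Each log2 fold change of the 6 tested genes of the set in 6 comparisons was recomputed under 21 alternatives. Of 756 such values 730 kept their direction and their side of the threshold, 11 were no longer called, 15 became called and 0 reversed. The number of called genes stayed within 1.5 times in all 126 alternatives. After siACO1 the metallothionein calls held in all 21, with ranges of 0.43 to 0.61 for MT2A, 0.53 to 0.72 for MT1E, 0.73 to 0.86 for MT1X and 1.43 to 1.63 for MT1M. The fall of MT1M after siACLY also held in all 21, from -0.41 to -0.32, and the rise of SLC30A1 after siSLC25A1, from 0.16 to 0.19.

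The remaining changes concern small differences. After siACLY, MT1E (-0.09, adjusted p = 0.0142), MT1X (-0.13, adjusted p = 0.041) and SLC30A1 (-0.10, adjusted p = 0.0201) became called in edgeR with only the groups compared in the fit, and SLC30A1 also by DESeq2 (adjusted p = 0.0357). In siSLC25A1 against siACLY, MT1X (0.14, adjusted p = 0.0713) became called in 5 settings, at most at 0.23. In siSLC25A1 against siACO1, library totals ended the calls of MTF1 (0.15, adjusted p = 0.0685) and SLC30A1 (0.10, adjusted p = 0.0586) in edgeR. Of 44 results for other named genes, 9 changed their call in at least 1 setting. They are SLC39A14, SLC39A10, SLC39A13, SCO1, SELENOW and CRISPLD2 after siSLC25A1, ATP7B and CEBPA after siACLY, and SLC30A6 after siACO1. The cause was not tested.

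Deviations of same-numbered replicates were at most weakly correlated. The correlation ran from -0.034 to 0.0672 over 18 pairs, 0 of them over 0.1. Between groups, pairs of different numbers ran from -0.0719 to 0.0708. For 6 of 12 libraries the mean correlation with libraries of other groups was highest for those of their own number. Whether that count exceeds what unrelated numbering gives was not tested. With the replicate number as a block, 3270 genes were called after siSLC25A1, 6038 after siACLY and 6093 after siACO1, against 3173, 5944 and 6008 without it. The log2 fold changes after siACO1 were then 0.55 for MT2A (adjusted p = 0.0123) and 1.55 for MT1M (adjusted p = 9.56e-14) in edgeR, and the block alone changed no call of the set. Block and length correction together called MT1X after siACLY (-0.15, adjusted p = 0.0259) and lost MT1A in siACLY against siACO1 (-0.35, adjusted p = 0.0534).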

Other observations

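The genes beside the cluster on chromosome 16 were looked at after their values were seen. In the edgeR fit of siACO1 against siControl, OGFOD1, which starts at -156.7 kilobases from the start of MT2A, fell by 0.38 (adjusted p = 6.98e-08), and BBS2 had a log2 fold change of 0.17 (adjusted p = 0.0112). NUDT21 (0.06) and NUP93 (-0.00) were not called. All of these values include siACO1 replicate 3, and values without it are not given here.

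KRT8 and KRT18, which encode keratins of the line, fell by 0.83 and 0.78 after siACO1 (adjusted p = 1.61e-15 for KRT8 and 6.61e-15 for KRT18 by edgeR). Here too replicate 3 is included, and values without it are not given.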
